A study of Homo sapiens with 6 samples.

Results

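Sphingosine 1-phosphate (S1P) is a lipid signal made inside cells from sphingosine and read outside them by G protein-coupled receptors. 8 genes of this system were followed by their symbols in the deposited table: the receptors S1PR1, S1PR2 and S1PR3, the sphingosine kinases SPHK1 and SPHK2, the S1P lyase SGPL1, the S1P phosphatase SGPP1 and the S1P exporter SPNS2. They are 8 of the 60605 genes in the table, and 7 of them had enough reads to be among the 14748 genes tested. The set was selected from results on these same libraries in which S1PR1 was higher after PUS1 knockdown, so the values of the 8 genes are given as a description and no p-value is given for them.

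The cells were MDA-MB-231, a human triple-negative breast cancer line with mesenchymal features. Polyadenylated RNA was sequenced from 3 libraries labelled shControl, which carried a control hairpin, and 3 libraries labelled shPUS1, which carried a hairpin against PUS1, an enzyme that converts uridine to pseudouridine in tRNA and other RNA. Cells of both groups were of 1 line, and the study's methods describe hairpins in a puromycin-resistant lentiviral vector. The comparison asks which transcripts differ in level when PUS1 is lowered. The labels call the libraries of a group biological replicates without saying whether they came from separate infections, so the errors below measure the spread between these libraries.

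Ceramide is cleaved to sphingosine, which the kinases phosphorylate to S1P. The lyase breaks S1P down irreversibly, the phosphatases return it to sphingosine, and exporters such as SPNS2 carry it out of the cell. S1PR1 couples to Gi and is best known from lymphocyte exit into blood and from vascular barrier function. S1PR2 couples in addition to Gq and G12/13 and is known for restraining cell migration in many cell types.

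Library totals lay between 14241505 and 19625998 estimated counts. CPM below are counts scaled to a common library size by TMM, a method that takes most genes as unchanged, and FPKM are the authors' values per kilobase of exonic length. PUS1 itself was at 14.5, 27.5 and 12.1 CPM in shControl replicates 1, 2 and 3, and at 6.57, 5.47 and 5.37 CPM in the shPUS1 libraries. Its log2 fold change was -1.64 (SE 0.32, adjusted p = 0.0462 by edgeR's quasi-likelihood test). It fell past the threshold described below in 6 of 13 other ways of processing and missed it, among others, without shControl replicate 1 (-1.78) and without shPUS1 replicate 1, 2 or 3 (-1.74, -1.59 and -1.59). One library stood apart: shControl replicate 2 had correlations of 0.9505 and 0.9521 with the other shControl libraries, against 0.981 between those and 0.9872 to 0.9906 among the shPUS1 libraries. Results on the S1P genes that rest on it are given with and without it, and without it the log2 fold change of PUS1 was -1.20. The 7 markers of the line, such as VIM and CD44, summed to 5100, 6050 and 5060 CPM in shControl. Their sums were 4230, 3940 and 4200 CPM in shPUS1, and none of the 7 passed the threshold. VIM, CD44, KRT19 and AXL lay below all controls in every shPUS1 library, as did 17.3% of all tested genes. The groups overlapped for KRT8, KRT18 and EGFR. Of the receptors low in triple-negative lines, ESR1 and PGR did not exceed 0.590 CPM in any library, and ERBB2 was at 51.1 to 73.3 CPM.

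The target sites of the hairpins are shown because they define the perturbation, and because a match of a guide's seed to an S1P transcript would bear on the comparison. The study designed 3 hairpins, and their targets in PUS1 on chromosome 12 of GRCh38 are written 5′ to 3′ on the sense strand, with the bases that pair with positions 2 to 8 of the guide in capitals.
shPUS#1, chr12:131932180-131932200: tgtcgggtcctcaCAATTCAa
shPUS#2, chr12:131941761-131941781: gcacttcgagaagTACAACCa
shPUS#3, chr12:131941469-131941489: gcacgcacaacttCCACAATt

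Each target lies within a single exon. That of shPUS#1 is present in 10 of the 11 PUS1 transcripts of GENCODE release 29 and those of shPUS#2 and shPUS#3 in 5 each. No other gene's transcripts hold any of them whole. Among the transcripts of the S1P genes, the seed match of shPUS#1 was found only in S1PR1, in 1 of its 6 transcripts, and that of shPUS#3 only in S1PR3, in 3 of 7. The seed match of shPUS#2 was found in none of the 8 genes. The longest run that an S1P gene shared with a target was 8 bases for shPUS#1 and 9 bases for each of the others. The labels do not name the hairpin of the sequenced cells, the column headings carry the words knockdown-2, and the part of these matches in the results was not tested.

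S1PR1 was the only S1P gene past the threshold, an adjusted p under 0.05 with a log2 fold change of at least 1 in size. The gene (ENSG00000170989) lies on the plus strand of chromosome 1, from 101236865 to 101243713, at the same start and end as in GENCODE release 29 on GRCh38. Its level was 7.92, 8.75 and 8.65 CPM in the shControl libraries and 21.0, 22.1 and 19.2 CPM in the shPUS1 libraries, on counts of 121, 167 and 127 against 377, 404 and 326. All 3 shPUS1 libraries lay far above all 3 shControl libraries, and the spread within either group was small. The means were 8.44 ± 0.456 and 20.8 ± 1.44 CPM (SD, n = 3 each), a 2.46-fold difference, and the log2 fold change was 1.30 (SE 0.16, 95% interval 0.94 to 1.66). The library that stood apart did not differ from the other controls here, and without it the log2 fold change was 1.32. Across all genes tested, 0.888% rose past the same threshold, 131 of 14748. This contrast chose the gene, so nothing is read from that share.

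Across 13 other ways of processing the data the log2 fold change of S1PR1 lay between 0.91 and 1.35, and it passed the threshold in 7 of them. It missed the threshold when shControl replicate 1 was left out (1.25), when shPUS1 replicate 1, 2 or 3 was left out (1.29, 1.25 and 1.35), with a replicate block (1.30) and with limma on log2(FPKM + 1), a scale that compresses low genes (0.91).

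The promoter of S1PR1 is shown because this gene differed most, on the log2 scale, among the tested S1P genes. RefSeq gives the window of 250 bases before and 50 after its start on GRCh38.p14, chr1:101236769-101237068 on the plus strand. The gene start given above, 101236865, lies inside this window, so part of the window falls within the gene span given there. Capitals mark CACCC, a core bound by Krüppel-like factors, in either orientation.
S1PR1 promoter: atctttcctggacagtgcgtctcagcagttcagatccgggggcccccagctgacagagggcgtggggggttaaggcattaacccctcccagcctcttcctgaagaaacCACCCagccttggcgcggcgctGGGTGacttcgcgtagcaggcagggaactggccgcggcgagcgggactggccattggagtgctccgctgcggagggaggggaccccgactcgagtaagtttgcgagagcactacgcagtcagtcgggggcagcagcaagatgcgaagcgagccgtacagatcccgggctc

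CACCC was searched on both strands and was present 2 times in this window, and 59.9% of the 35116 promoter windows in the table held it. GGGCGG, the core of GC boxes (45.0% of windows), TGACTCA, an AP-1 site (4.95%), and TGACGTCA, a cAMP response element (1.85%), were not present in the S1PR1 window. The AP-1 letters were present in 2 of the 3 windows listed for SPHK1, and the cAMP response element in that of S1PR2. Of the 8 genes, 6 were in the promoter table, with 10 windows in all, and SGPP1 and SPNS2 were not. KLF2, a Krüppel-like factor known to drive S1PR1 transcription in lymphocytes and endothelium, was at 9.10, 12.4 and 9.20 CPM in shControl and 8.57, 7.55 and 9.92 CPM in shPUS1. Its log2 fold change was -0.24 (SE 0.21, adjusted p = 0.495), and its groups overlapped. KLF2 was named after its values had been seen.

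**Figure D1:**
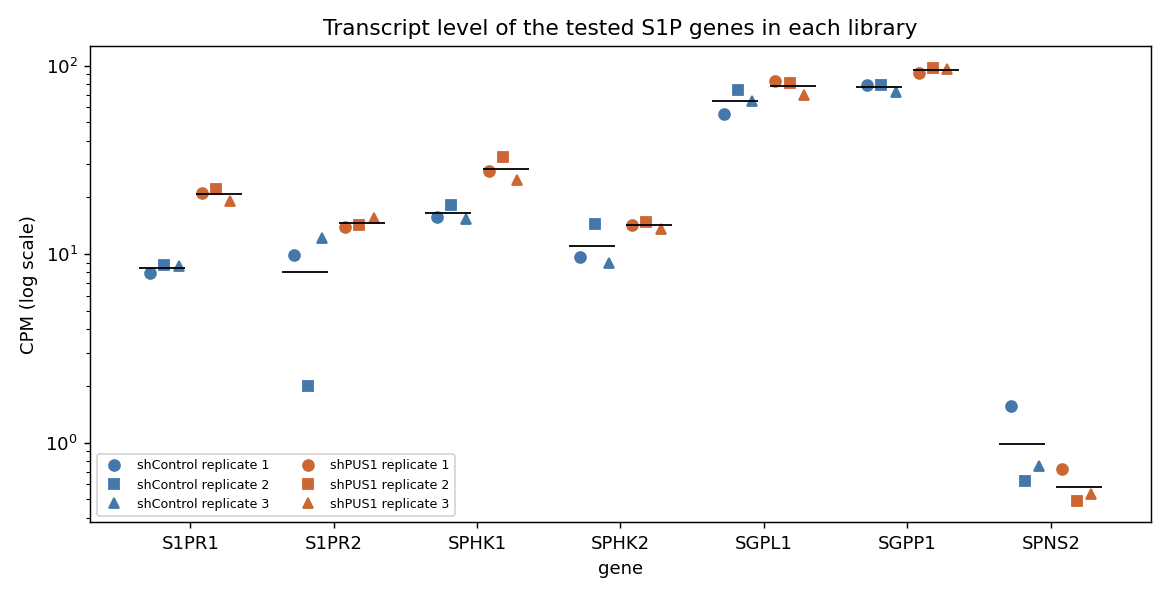
CPM (log axis) of the 7 tested S1P genes in each of the 3 shControl and 3 shPUS1 libraries, with a black line at each group mean and 1 marker shape per replicate number. S1PR1 lay at 7.92 to 8.75 CPM in shControl and 19.2 to 22.1 CPM in shPUS1, and the lowest S1PR2 value, 1.99 CPM, was that of shControl replicate 2.

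S1PR2 lay above the controls in every shPUS1 library, but the size of the difference rested on the library that stood apart. The gene (ENSG00000267534) lies on the minus strand of chromosome 19, from 10221433 to 10231331. It was at 9.88, 1.99 and 12.2 CPM in the shControl libraries and at 14.0, 14.3 and 15.5 CPM in the shPUS1 libraries. The groups did not overlap, the shPUS1 values were close together, and shControl replicate 2 was far below all others. The log2 fold change was 0.87 (SE 0.53, 95% interval -0.35 to 2.10), and without shControl replicate 2 it was 0.40 (SE 0.14). S1PR2 was not past the threshold under any of the 13 alternatives.

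S1PR2 overlaps DNMT1, the maintenance DNA methyltransferase, on the same strand over 9854 bases, nearly its whole span. DNMT1 was at 218, 435 and 258 CPM in shControl and at 280, 269 and 267 CPM in shPUS1, and its highest value was in the library where S1PR2 was lowest. Only 1 of 3544 stretches of 100 bases in the S1PR2 transcripts was shared with transcripts of another gene. How the counting treated reads in the shared span was not given in the sources used here, and its part in the S1PR2 values was not tested.

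S1PR3, on chromosome 9, was close to silent and was not tested. Its counts were 2, 0 and 2 in shControl and 3, 16 and 15 in shPUS1. Both shPUS1 replicates 2 and 3, at 0.876 and 0.885 CPM, lay above every control, while shPUS1 replicate 1, at 0.167 CPM, was close to the controls at 0.131, 0 and 0.136 CPM. The count of 0 in shControl replicate 2 allows a level of up to 0.157 CPM, the value of 3 counts, for counting error only. No fold change is given for so few reads.

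SPHK1, the kinase that growth factors activate, had groups well apart but a smaller difference than S1PR1. The gene (ENSG00000176170) lies on the plus strand of chromosome 17, from 76376584 to 76387860. It was at 15.8, 18.3 and 15.4 CPM in shControl and at 27.5, 32.8 and 24.7 CPM in shPUS1. The highest control was far below the lowest shPUS1 library, with means of 16.5 ± 1.58 and 28.4 ± 4.11 CPM (SD, n = 3 each), a 1.72-fold difference. The log2 fold change was 0.78 (SE 0.16, 95% interval 0.40 to 1.16). In the main edgeR fit SPHK1 met neither the minimum size nor the adjusted p of the threshold. Its adjusted p was under 0.05 in 4 of 13 alternatives, among them the DESeq2 test and the fit without shControl replicate 2. SPHK1 was past the threshold in 0 of the 13, as it stayed below the minimum size. Its log2 fold change was 0.86 without shControl replicate 2. The gene overlaps PRPSAP1 on the opposite strand over 7938 bases. PRPSAP1 was at 56.5, 48.8 and 44.2 CPM in shControl and 45.2, 49.0 and 45.0 CPM in shPUS1, so its shPUS1 values lay inside the control range. Whether reads were counted by strand was not given in the sources used here, and reads of both genes over the shared span may not have been told apart.

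SPHK2, the kinase found largely in the nucleus and mitochondria, showed overlapping groups. The gene (ENSG00000063176) is on chromosome 19, from 48619291 to 48630717. It was at 9.69, 14.5 and 8.99 CPM in shControl and at 14.2, 14.8 and 13.6 CPM in shPUS1. shControl replicate 2 reached the shPUS1 level and the other controls lay below it. The log2 fold change was 0.36 (SE 0.22, 95% interval -0.14 to 0.86). It was 0.60 (SE 0.13) without shControl replicate 2, where the groups no longer overlapped, and 0.22 without shControl replicate 3. SPHK2 overlaps DBP by 688 bases and an unnamed gene by 4842 bases, both on the opposite strand, so the same limit on strand holds for it.

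The kinases together made up 5.28, 6.37 and 5.13 FPKM in shControl and 8.49, 9.87 and 7.78 FPKM in shPUS1. The share of SPHK1 in that sum was 68.94%, 63.27% and 69.98% in shControl and 72.44%, 75.08% and 71.34% in shPUS1. The shares did not overlap, with means of 67.4% ± 3.61 and 73.0% ± 1.92 (SD, n = 3 each), but their difference of 5.55 percentage points fell to 3.49 without shControl replicate 2.

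The genes that degrade S1P or return it to sphingosine were the most abundant of the set, and their differences on the log2 scale were small. SGPP1, an S1P phosphatase of the endoplasmic reticulum, was at 78.5, 78.9 and 72.4 CPM in shControl and 91.3, 97.6 and 95.5 CPM in shPUS1. Its groups did not overlap, and its log2 fold change was 0.31 (SE 0.11, 95% interval 0.05 to 0.56). SGPL1, the lyase, was at 55.2, 74.2 and 64.5 CPM in shControl and 83.1, 80.9 and 69.7 CPM in shPUS1. Its groups overlapped, since shControl replicate 2 exceeded shPUS1 replicate 3. The log2 fold change of SGPL1 was 0.27 (SE 0.15, 95% interval -0.07 to 0.61). It was 0.37 (SE 0.12) without shControl replicate 2 and 0.17 without shControl replicate 1. SGPP1 (ENSG00000126821) lies on chromosome 14, from 63684216 to 63728065, and SGPL1 (ENSG00000166224) on chromosome 10, from 70815948 to 70881184.

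SPNS2, the exporter, was the only tested S1P gene with a lower mean in shPUS1. It was at 1.57, 0.629 and 0.749 CPM in shControl and at 0.723, 0.493 and 0.531 CPM in shPUS1. Its counts were 24, 12 and 11 against 13.1, 9 and 9, and the groups overlapped. The log2 fold change was -0.74 (SE 0.48, 95% interval -1.84 to 0.37), and the interval spans 0. It was -0.24 without shControl replicate 1, the highest library, and -0.996 without shControl replicate 2. SPNS2 overlaps MYBBP1A by 139 bases and an unnamed gene by 794 bases, both on the opposite strand, and MYBBP1A was at 48.6, 100 and 56.4 CPM in shControl and 44.9, 41.9 and 45.4 CPM in shPUS1.

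**Figure D2:**
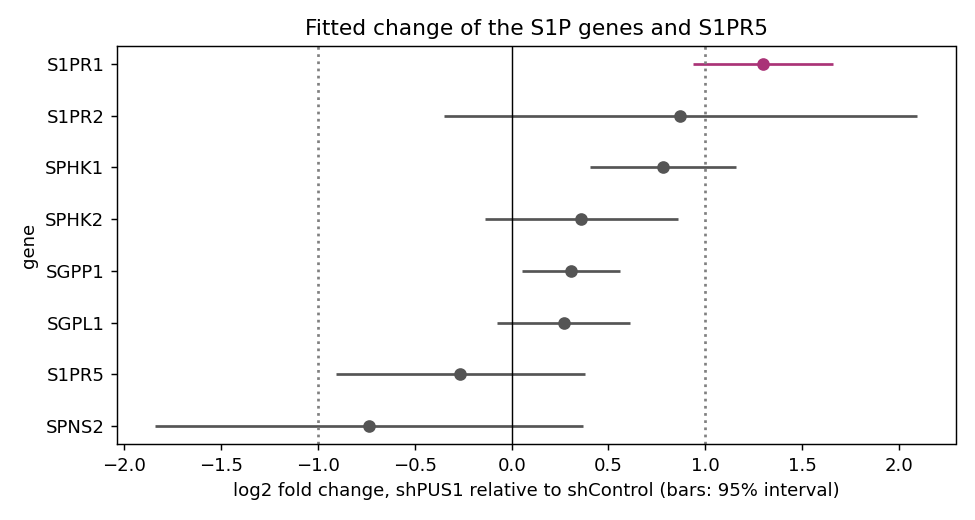
Fitted log2 fold change of shPUS1 relative to shControl with its 95% interval for the tested S1P genes and S1PR5, from edgeR on 3 libraries per group. S1PR1 lay at 1.30, SPHK1 at 0.78 and SGPP1 at 0.31 with intervals above 0, and the interval of S1PR2 ran from -0.35 to 2.10.

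Across the set, 6 of the 7 tested genes had a log2 fold change above 0, with a median of 0.36. Among all 14748 genes 6978 were above 0 and 7770 below, with a median of -0.0343. The lean was not particular to the set. In the list of lysophosphatidic acid receptors and autotaxin described below, all 4 tested genes were above 0, with a median of 0.428. The medians of the other pathway lists ran from -0.265 to 0.122. The values of shPUS1 lay above all controls for 4 of the 7 tested genes, S1PR1, S1PR2, SPHK1 and SGPP1, and also for the untested S1PR3, and lay below them for none. Of all tested genes, 18.8% lay above without overlap and 17.3% below. Without shControl replicate 2, 7 of the 8 genes lay above, the untested S1PR3 among them, and SPNS2 below. Of all tested genes, 25.3% then lay above and 25.7% below, shares that do not cover S1PR3. In both counts S1PR3 lay above by a count of 3 in shPUS1 replicate 1 against 2 in the highest controls. These counts describe genes picked from this contrast.

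Per unit of exonic length the order of levels was nearly the same in both groups. In shControl it ran SGPP1 at 23.1 FPKM, SGPL1 at 8.65, SPHK1 at 3.75, S1PR2 at 2.25, SPHK2 at 1.84, S1PR1 at 1.63, SPNS2 at 0.243 and S1PR3 at 0.00667 FPKM. The ranges of S1PR2 and SPHK2 overlapped, as did those of SPHK2 and S1PR1. In shPUS1, S1PR1 stood above SPHK2, at 3.94 against 2.34 FPKM, and its range overlapped that of S1PR2 at 3.97 FPKM. No other neighbours in that order overlapped.

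**Figure D3:**
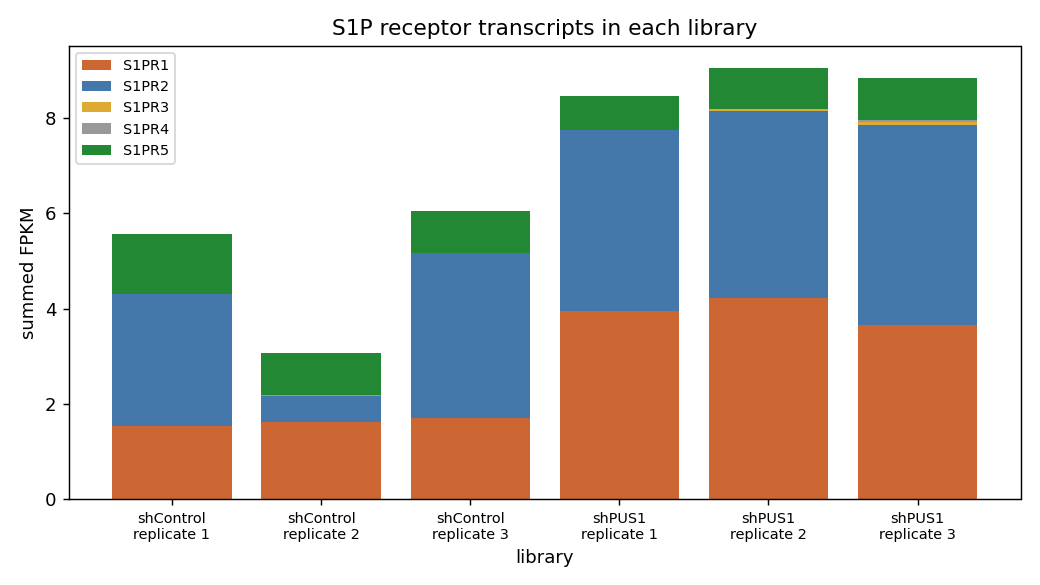
Summed FPKM of the 5 S1P receptor genes in each library, with the part of each receptor stacked from 0. The sum was 3.08 to 6.05 in shControl and 8.47 to 9.06 in shPUS1, and shControl replicate 2, the lowest, had little S1PR2.

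The receptors were summed with S1PR4 and S1PR5, receptors found mainly on leukocytes and, for S1PR5, also in brain. Their sum was 5.57, 3.08 and 6.05 FPKM in shControl and 8.47, 9.06 and 8.85 FPKM in shPUS1, with means of 4.90 ± 1.59 and 8.79 ± 0.299 FPKM (SD, n = 3 each). The low value of shControl replicate 2 lowered the control mean and so widened the difference. shControl replicates 1 and 3, at 5.57 and 6.05 FPKM, also lay below every shPUS1 library. S1PR1 and S1PR2 accounted for most of the sum in every library. S1PR1 made up 27.65%, 52.92% and 28.26% of the sum in shControl and 46.75%, 46.58% and 41.24% in shPUS1. The groups overlapped because shControl replicate 2, with little S1PR2, had the highest share of S1PR1. The mean difference of 8.58 percentage points was 16.9 without that library, 4.27 without shControl replicate 1 and 4.57 without shControl replicate 3.

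S1PR5 did not pass the threshold. It was at 3.47, 2.57 and 2.38 CPM in shControl and at 2.06, 2.41 and 2.54 CPM in shPUS1. The groups overlapped, with a log2 fold change of -0.26 (SE 0.28, adjusted p = 0.571). Its part of the receptor sum was 22.62%, 28.90% and 14.55% in shControl and 8.50%, 9.49% and 10.17% in shPUS1, a lower share in each shPUS1 library. That sum was higher in every shPUS1 library and holds S1PR1, by which the set was selected, so the share is no measure of S1PR5 alone. In FPKM S1PR5 was at 1.26, 0.89 and 0.88 in shControl and 0.72, 0.86 and 0.90 in shPUS1, and the groups overlapped. S1PR4 had at most 1 count in any library and was not tested.

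Markers of other cells were checked because endothelial cells and fibroblasts also carry S1P receptors. The summed level of 7 endothelial markers was 14.1, 4.82 and 17.5 CPM in shControl and 20.3, 22.9 and 19.7 CPM in shPUS1. Most of it was KDR, and 0 of the 5 tested markers passed the threshold. KDR and ERG, a transcription factor gene with counts of 1, 0 and 3 in shControl and 11, 12 and 17 in shPUS1, lay above all controls in every shPUS1 library, as did 18.8% of all tested genes. The groups overlapped for the other defining markers, with CDH5 at 0.157 to 2.79 CPM and VWF at no more than 0.886 CPM. The 5 fibroblast markers summed to 50.2, 16.7 and 61.0 CPM in shControl and 88.4, 97.6 and 84.8 CPM in shPUS1, mostly PDGFRB and COL1A1. Of the 4 tested, 1 rose past the threshold, as did 0.888% of all tested genes. It was LUM, on counts of 17, 3 and 8 in shControl against 62, 85 and 77 in shPUS1. PDGFRB, COL1A1 and LUM lay above all controls in every shPUS1 library, while the groups overlapped for COL3A1 and the untested DCN. Both sums were lowest in shControl replicate 2, as S1PR2 was, and higher in every shPUS1 library, as S1PR1 was. Leukocyte markers summed to 1.99 to 5.04 CPM, with CD3E at 0 in every library. The part of these markers in the results was not tested. In bulk RNA, expression by the line itself, more cells of a type and more RNA per cell cannot be told apart.

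The wider sphingolipid pathway was described by 65 genes in 6 lists, of which 54 were tested. None rose past the threshold and 1 fell, ABCA1, while 0.888% of all genes rose and 0.481% fell. By edgeR's unadjusted p under 0.05, 6 of the 54 were higher and 4 lower, where 12.6% of all tested genes were higher and 12.8% lower. DESeq2 gave 7 and 4 of 63, where 7.34% and 7.20% of all its 27004 genes were higher and lower. The unadjusted counts of single lists below are read against these shares. The median log2 fold change of the 54 genes was 0.0394, with 30 above 0 and 24 below.

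The list of other S1P phosphatases, transporters and carrier held the single pathway gene past the threshold. ABCA1, a lipid exporter best known for loading cholesterol onto apolipoprotein A-I and linked to S1P export in some cells, was at 21.3, 21.2 and 30.7 CPM in shControl and at 11.6, 12.3 and 9.80 CPM in shPUS1. All shPUS1 values lay below all controls. ABCA1 fell by 1.12 on the log2 scale (SE 0.20, adjusted p = 0.0418), from 24.4 ± 5.49 to 11.2 ± 1.30 CPM (SD, n = 3 each), and it passed the threshold in 5 of 13 alternatives. Among the leave-outs it passed only without shControl replicate 2 (-1.21), and without another library its log2 fold change was -0.92 to -1.21. PLPP1, a cell-surface phosphatase of lysophospholipids including S1P, was at 17.5, 18.0 and 16.1 CPM in shControl and at 25.0, 31.5 and 33.0 CPM in shPUS1. Its log2 fold change of 0.80 (SE 0.16, adjusted p = 0.0467) was below the minimum size. PLPP1 was named after its values had been seen. Of the 9 tested genes of that list, 7 had a log2 fold change below 0, and the median was -0.196.

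No gene of de novo ceramide synthesis passed the threshold among the 14 tested of 17. By unadjusted p under 0.05, edgeR had 0 higher and 2 lower and DESeq2 had 1 and 2 of 16. Their log2 fold changes ran from -0.472 to 0.446 around a median of 0.122. CERS2, the ceramide synthase for very long acyl chains, was at 258, 289 and 250 CPM in shControl and 273, 262 and 266 CPM in shPUS1 (log2 fold change 0.01, SE 0.11, adjusted p = 0.974), a difference whose sign changed with the scaling. DEGS1, the desaturase that forms ceramide, was at 148, 166 and 135 CPM against 169, 171 and 159 CPM (log2 fold change 0.15, SE 0.12, adjusted p = 0.445).

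Among genes of ceramide and sphingomyelin turnover, 14 of 16 were tested and 0 passed the threshold, with 2 higher and 1 lower by unadjusted p under 0.05 in edgeR and likewise in DESeq2 over 15 genes. UGCG, which makes glucosylceramide, was at 843, 338 and 820 CPM in shControl and 698, 664 and 611 CPM in shPUS1 (log2 fold change -0.02, SE 0.31, adjusted p = 0.973), and here too shControl replicate 2 was far from the others. GALC, the lysosomal galactosylceramidase, was at 107, 75.1 and 111 CPM against 126, 118 and 125 CPM (log2 fold change 0.33, SE 0.16, adjusted p = 0.246, or 0.17 on the log2 scale without shControl replicate 2). SGMS1, which makes sphingomyelin from ceramide in the Golgi, was at 77.6, 82.8 and 80.5 CPM in shControl and 129, 137 and 127 CPM in shPUS1. Its groups were well apart, and its log2 fold change of 0.71 (SE 0.11, adjusted p = 0.0319) was below the minimum size.

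Of the G proteins and receptor regulators, 12 of 13 were tested and 0 passed the threshold, with 2 higher and 0 lower by unadjusted p under 0.05 in edgeR and likewise in DESeq2 over 13 genes. GNAI2, a Gi subunit through which S1PR1 signals, was at 528, 531 and 558 CPM in shControl and 518, 468 and 527 CPM in shPUS1 (log2 fold change -0.10, SE 0.11, adjusted p = 0.605). GNAI3 was at 259, 297 and 219 CPM against 217, 205 and 221 CPM (log2 fold change -0.27, SE 0.14, adjusted p = 0.258).

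The receptors of lysophosphatidic acid, the sister lipid signal of S1P, were taken with autotaxin as a list of 7 genes, 4 of them tested and 0 past the threshold, with 1 higher and 0 lower by unadjusted p under 0.05 in edgeR and likewise in DESeq2 over 7 genes. LPAR1 was at 9.62, 9.28 and 10.4 CPM in shControl and 12.6, 10.5 and 11.5 CPM in shPUS1 (log2 fold change 0.24, SE 0.17, adjusted p = 0.396). LPAR2 was at 4.58, 3.41 and 4.91 CPM against 4.40, 5.96 and 4.72 CPM (log2 fold change 0.23, SE 0.25, adjusted p = 0.584). LPAR3 had the highest log2 fold change of the list, 1.43 (SE 0.50, adjusted p = 0.132), from counts of 13, 4 and 10 against 28, 31 and 23, and was named after its values had been seen.

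**Figure D4:**
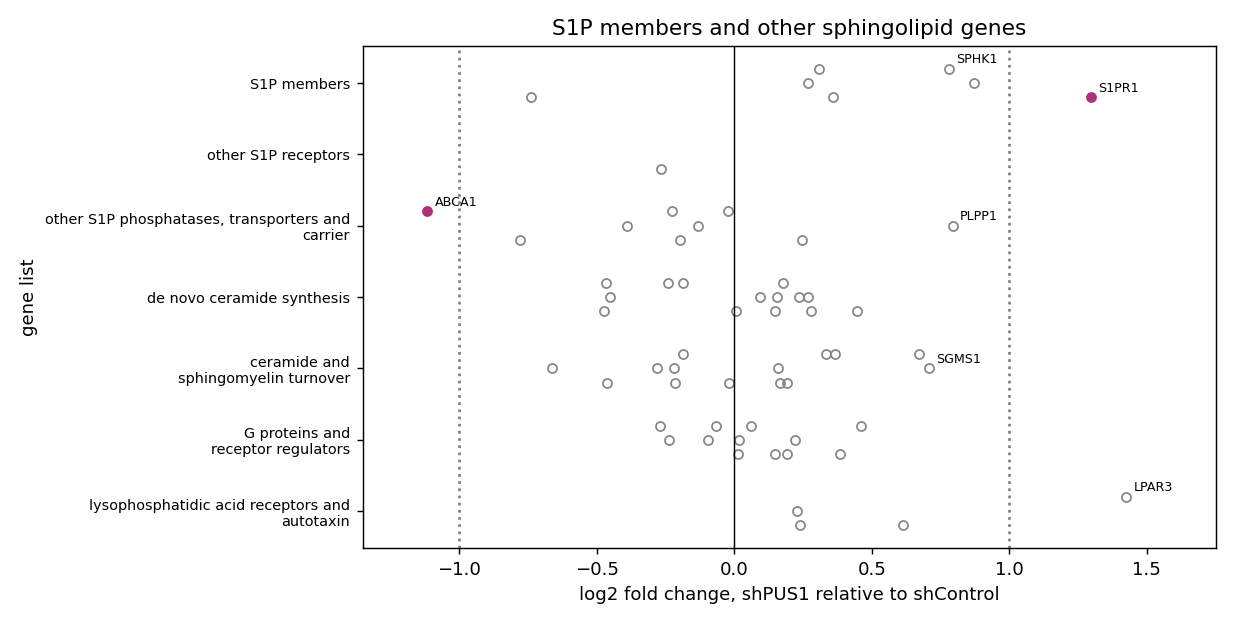
Log2 fold change of shPUS1 relative to shControl for each tested gene of the S1P set and of the 6 other lists, with filled points for genes past the threshold and dotted lines at the minimum size of 1. S1PR1 at 1.30 and ABCA1 at -1.12 were the only filled points, and LPAR3 at 1.43 did not pass on its adjusted p.

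The patterns of 10532 protein-coding genes with a mean of at least 5 CPM were compared with that of S1PR1. Genes most like it were found by Pearson's r of log2 CPM over the 6 libraries. They included SGMS1 (r = 0.999), SYBU (0.9973), TMOD3 (0.9965) and USP43 (0.996). SYBU encodes a microtubule-associated protein and TMOD3 an actin filament capping protein. These 4 genes had shPUS1 libraries above all controls, with log2 fold changes from 0.41 for USP43 to 0.88 for SYBU, smaller than that of S1PR1. Within the S1P set r with S1PR1 was 0.964 for SPHK1, 0.943 for SGPP1, 0.751 for SGPL1, 0.705 for SPHK2, 0.564 for S1PR2 and -0.642 for SPNS2. These values are descriptions over 6 libraries that share 1 group contrast, and any gene with well separated groups has a high r with S1PR1.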

How the data were processed

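Polyadenylated RNA of 3 shControl and 3 shPUS1 libraries was analysed. Per the labels and the study's methods, the authors aligned paired-end reads with HISAT2 and derived expression levels with HTSeq 0.6.1. The genome build, the annotation release and strandedness were not given in the sources used here. The deposited estimated counts are not normalized and are partly not whole. The deposited FPKM were made by the authors by dividing each count by the exonic length of the gene and the library total. All libraries were mapped by the labels and none was pooled.

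Counts were rounded to whole numbers. Genes were filtered with filterByExpr, which left 14748 of 60605, and TMM factors were applied. Groups were compared in edgeR 4.0.16 (R 4.3.3, quasi-likelihood F test, prior count 2) with Benjamini-Hochberg adjustment over all genes tested. The threshold required a log2 fold change of at least 1 in size beside an adjusted p under 0.05. The procedure was tested on simulated data with the same spread between libraries set for every gene. No simulated library stood apart, so that test does not cover shControl replicate 2. DESeq2 1.42.0 and limma 3.58.1 (minimum mean FPKM of 1) served for alternatives, and tables and plots were made in Python 3.11.15 (pandas 2.3.3, numpy 2.4.6, matplotlib 3.10.9, scipy 1.17.1). Depth was 14241505 to 19625998 counts per library, and the limit of 3 counts covers counting error only. The alternatives were DESeq2 size factors, library totals without TMM, no filter on low counts, the DESeq2 test, limma on FPKM with pseudocounts of 1 and 0.1, a replicate block, no minimum fold and each library left out.

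All S1P genes and PUS1 were named. From each pathway list the genes past the threshold were named, or else the 2 with the highest mean CPM, with all genes of lists of 3 or fewer, and the 5 genes most like S1PR1, of which 1 is not reported here. The members and lists were chosen with earlier results of these data known.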

Additional observations from a re-analysis of the deposited data

How the results depend on the processing

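The log2 fold changes of S1PR1, S1PR2, SPHK1, SPHK2, SGPL1, SGPP1 and SPNS2 kept their sign under every alternative that gave a value, and only the call of S1PR1 changed. The adjusted p alone was under 0.05 in 4 of 13 alternatives for SPHK1 and in 1 of 13 each for SPHK2 and SGPP1, all below the minimum size. Over all genes, those higher and lower past the threshold (131 and 71) became 293 and 243 with no filter on low counts, 250 and 239 with the DESeq2 test, 256 and 124 with no minimum fold, 71 and 16 with limma on log2(FPKM + 1), 68 and 44 with log2(FPKM + 0.1), and 18 and 0 with the replicate block, where edgeR's unadjusted p under 0.05 held for 1561 and 1254. The cause was not tested. No replicate pairing was seen (same-number correlations -0.0529, -0.0256 and -0.19). S1P genes past the threshold numbered 0 with limma on log2(FPKM + 1) and with the block. Pathway genes that fell numbered 0 with both limma fits and the block (unadjusted 3, 3 and 2), and 2 were higher with no minimum fold. Leaving out 1 library gave 0 to 246 genes higher (246 without shControl replicate 2, 0 without shPUS1 replicate 3, where 1402 were higher and 1179 lower by unadjusted p), 0 to 251 lower, 0 to 1 S1P genes higher, 0 to 1 pathway genes lower, and 0 to 1 S1P genes wholly below the controls. CERS2 was -0.0142 with totals without TMM, -0.0129 and -0.0131 with limma, and -0.0427 to 0.0643 without 1 library. UGCG was 0.0675 and 0.0690 with limma, 0.0852 with the block, and -0.345 to 0.183 without 1 library.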
